A study of Arabidopsis thaliana with 32 samples.

Results

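Wild-type Arabidopsis thaliana seedlings aged 7 days were compared with wild-type seedlings aged 4 days. The comparison rests on 8 of the 32 arrays of the series: 4 arrays of day 7 and 4 arrays of day 4, chosen by the genotype and age in the labels. All 8 carried total RNA of whole seedlings of the Columbia wild type, with no mutation or treatment named, and the age is the only labelled difference between the groups. The series also holds wild-type seedlings of days 1 and 10 and, at each age, sahh1 seedlings, a mutant in the gene for S-adenosylhomocysteine hydrolase 1. The labels give no growth medium, light regime or hour of harvest, and do not say whether the arrays of a group came from separate cultures. P values therefore measure only a spread between samples that may be technical. The fit pooled that spread over all 8 groups of genotype and age in the series.

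A seedling of this age is becoming self-supporting. After germination it lives on storage oil, which is broken down in peroxisomes and passed through the glyoxylate cycle, while the cotyledons green and build their photosynthetic apparatus. The root grows out, forms root hairs and a Casparian strip, a lignified seal in the endodermis, and takes over the supply of nitrate, sulfate, phosphate and iron. The shoot meristem then makes the first true leaves, with trichomes and stomata of their own. In whole seedlings the balance of organs shifts over these days, and in such bulk RNA a smaller share of cells of a type cannot be told apart from less RNA of its genes per cell.

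Levels are log2 of the deposited normalized intensity after quantile normalization over all 32 arrays, which gives every array the same distribution of values. Differences are day 7 minus day 4 on that scale, with the standard error of the limma fit, so a difference of 1 is a 2-fold change. Before that step the array medians were 1793 to 1923 at day 7 and 460 to 470 at day 4, so age cannot be told apart from hybridisation or normalization by age. Arrays 1 and 2 of a group resembled each other more than they resembled arrays 3 and 4, in every group, and the values of each pair were averaged and counted as 1 sample (n = 2 per group). Across 18231 bright loci the SD of the difference was 0.150 to 0.152 within the day 7 pairs and 0.380 to 0.390 between them, against 0.262 to 0.271 within and 0.339 to 0.367 between the day 4 pairs. A level is comparable between arrays but not between genes, whose probes differ. In each list of 4 values below, the first pair is sample 1 of that age and the second pair is sample 2.

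Of the 30385 loci, 6769 (22.3%) differed between day 7 and day 4 at a Benjamini-Hochberg adjusted p under 0.05 in limma: 3312 (10.9%) were higher and 3457 (11.4%) lower at day 7. A change of at least 2-fold was found in 1587 loci that rose and 1749 that fell, and a change of at least 4-fold in 387 and 291 loci. The median difference of all loci was -0.02. Of the calls 51.1% were lower, but 14.4% were lower with the values as deposited, 83.5% with arrays scaled to reference genes and 88.0% with arrays scaled to their median, since these settings shifted the median of all loci to 1.40, -0.43 and -0.60. Directions are therefore relative to the median of all loci, and all 183 called genes described below kept theirs on that basis under 4 other scalings. Of these, the values as deposited and both scalings by 1 constant per array give the same relative differences, so with cyclic loess 2 distinct checks were made. The difference relative to all loci shrank to under 0.5 times its size for 20 of the 183 with the values as deposited, and for 5 with cyclic loess. These 5 were GIS (1.37 with cyclic loess), IRX9 (-0.66), OLEO4 (0.52), JAG (-0.46) and NPC4 (-0.23). The count of calls fell to 3116 without day 7 sample 1, to 2974 without day 7 sample 2, to 4462 without day 4 sample 1 and to 4475 without day 4 sample 2, and was 11175 without either sahh1 sample of day 4, a pair that differed more than any other. Pseudogenes in the reference annotation made up 12.8% of the annotated loci, 22.7% of the annotated loci that rose and 7.51% of those that fell. With the dimmest 25% of loci left out 3283 loci were higher and 2861 lower. The size of a fold against a dim probe depends on the background, and a mean under 5.56, the lower quartile of all loci, is called dim here. Among called genes described below the day 7 mean was dim for LHCB2.2, ATHSP22.0, LDOX, HSP23.6-MITO and HSP21, the day 4 mean for MYB72, FT, PDF1.3, PDF1.2b, COR15A, OLEO4, GIS and AGL24, and both for NAC012 and AGL8.

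**Figure D1:**
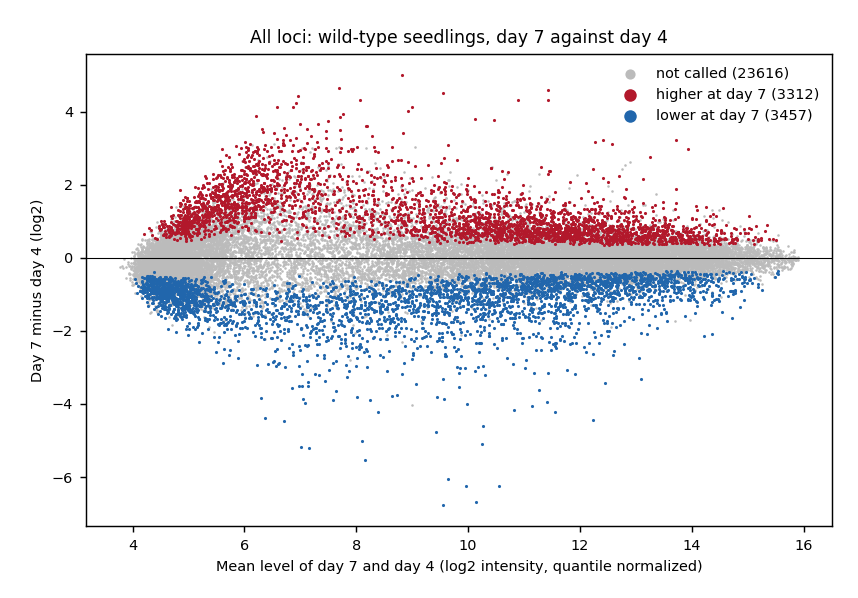
Difference between day 7 and day 4 of wild-type seedlings (log2, vertical axis) against the mean level of the 2 ages (log2 intensity after quantile normalization, horizontal axis) for all 30385 loci. Red points are the 3312 loci called higher and blue points the 3457 called lower at day 7 (limma, adjusted p under 0.05), and grey points were not called; the deepest decreases pass -6, beyond any increase.

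Small heat shock proteins, the chaperones that hold unfolding proteins, took 3 of the 12 largest decreases among called genes with a symbol, arrays that did not overlap and a higher group above the median level of all loci. HSP17.6A, a cytosolic member (AT5G12030), had levels of 7.19, 7.10, 6.36 and 6.57 on the day 7 arrays, against 13.70, 13.71, 13.27 and 13.23 on the day 4 arrays. At day 7 it was 102-fold lower, a difference of -6.68 ± 0.27 (adjusted p = 1.47e-06). Its tandem neighbour HSP17.6II (AT5G12020) read 7.17, 6.84, 6.63 and 6.76 at day 7 and 13.24, 13.24, 12.95 and 12.94 at day 4, a difference of -6.24 ± 0.22 (adjusted p = 7.76e-07); the probes of such close copies may bind each other's RNA. The mitochondrial HSP23.6-MITO (AT4G25200) differed by -5.53 ± 0.24 (adjusted p = 2.05e-06), the plastid HSP21 (AT4G27670) by -5.18 ± 0.24 (adjusted p = 2.59e-06), and the endomembrane member listed as ATHSP22.0 by -5.21 ± 0.43 (adjusted p = 1.18e-04). In all 5 genes the arrays of the 2 ages did not overlap; HSP21 and ATHSP22.0 had a day 4 mean below that median and are not among the 12. Over the list of 11 heat shock genes, which does not hold HSP17.6A, 8 fell and 0 rose, where 11.4% of all loci fell, with a median of -1.46 against -0.02 for all loci. The disaggregase HSP101 fell by less, with -1.12, and the regulator HSFA2, a heat shock transcription factor, stood at -1.46 and was not called; it was chosen after its value was seen. The count of members that fell was 6 to 9 when any of the 16 samples was left out.

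The day 4 level of these genes was also above that of day 1. HSP17.6A averaged 9.39 at day 1, 13.48 at day 4, 6.80 at day 7 and 7.78 at day 10, and HSP23.6-MITO averaged 8.55, 10.92, 5.39 and 5.64 at the same 4 ages. For both, day 4 was the highest of the 4 ages. The difference of HSP17.6A was -6.68 ± 0.27 in wild type and -4.57 ± 0.27 in sahh1, and that of HSP23.6-MITO was -5.53 ± 0.24 in wild type and -3.68 ± 0.24 in sahh1. The difference between genotypes was not called for either gene. These standard errors come from a spread shared by all groups. Across bright loci the SD between samples of day 4 was 0.747 in sahh1 and 0.299 in wild type.

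Genes of other functions fell as far. ABCG40, a plasma membrane importer of abscisic acid (AT1G15520), read 7.50, 7.52, 7.18 and 7.53 on the day 7 arrays, against 14.10, 14.09, 13.25 and 13.30 on the day 4 arrays. Its difference was -6.25 ± 0.34 (adjusted p = 9.94e-06), and the groups did not overlap. FAMT, a methyltransferase that acts on farnesoic acid (AT3G44860), had 7.81, 8.07, 5.45 and 5.10 at day 7 and 13.18, 13.00, 12.32 and 12.14 at day 4, a difference of -6.05 ± 0.96 (adjusted p = 0.00247). The day 7 samples of FAMT lay more than 2 apart. GPT2, which carries glucose 6-phosphate into plastids (AT1G61800), read 8.26, 8.42, 7.03 and 7.08 at day 7 and 12.48, 12.76, 13.02 and 12.94 at day 4, a difference of -5.10 ± 0.46 (adjusted p = 1.84e-04). Unlike the heat shock genes, GPT2 was at its highest at day 1, with a mean of 14.62. The rest of the 12 were TDR1, an ERF-family transcription factor (-5.02), LHCB2.3 (-4.44), the kinase CIPK20 (-4.16), ACA2, here an alpha carbonic anhydrase at AT2G28210 (-3.94), the B-box protein BBX28 (-3.86) and the clock gene PRR9 (-3.81).

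The 12 largest increases under the same conditions held antifungal defensins, dehydration-linked proteins and iron regulators. RAB18, a dehydrin induced by abscisic acid (AT5G66400), read 13.27, 13.26, 12.85 and 12.82 on the day 7 arrays, against 8.80, 8.94, 8.18 and 9.01 on the day 4 arrays. Its difference was 4.32 ± 0.24 (adjusted p = 9.94e-06). COR15B, a plastid cold-response protein (AT2G42530), read 11.66, 11.42, 10.68 and 10.48 at day 7 and 7.27, 6.26, 7.33 and 6.90 at day 4, a difference of 4.12 ± 0.34 (adjusted p = 1.18e-04). For both, every day 7 array lay above every day 4 array. RAB18 was also high at day 1, with means of 13.37 at day 1, 8.73 at day 4, 13.05 at day 7 and 12.90 at day 10, whereas COR15B was low at day 1 (5.11). The others were PDF1.3 (4.66), PDF1.2 (3.42) and PDF1.2c (2.65), all plant defensins, XTH25, a xyloglucan-modifying enzyme of the wall (3.60), the receptor-like protein RLP47 (2.73), GulLO4, a gulonolactone oxidase homologue (2.69), the transporter ABCB13 (2.68), the receptor kinase RK2 (2.60), and bHLH38 and BHLH101, described with the iron genes. The defensins are close copies whose probes may share RNA. With any sample left out PDF1.2 differed by 2.52 to 4.33 and PDF1.2c by 1.62 to 3.67. Both lost the call in some of these fits.

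**Figure D2:**
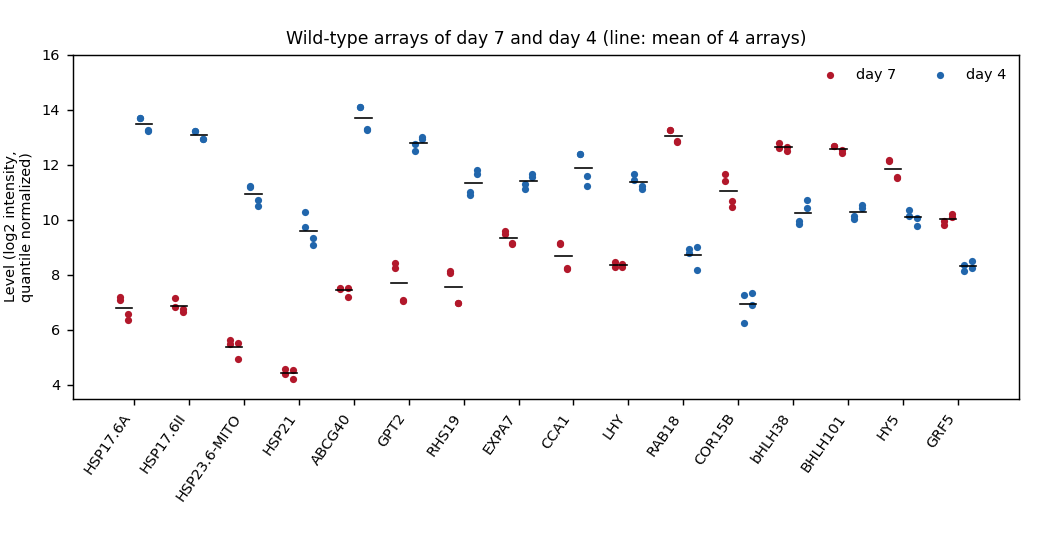
Levels (log2 intensity after quantile normalization) of 16 genes on the 4 wild-type arrays of day 7 (red, left of each pair) and the 4 of day 4 (blue, right of each pair), with a black line at the mean of each 4. In all 16 genes the arrays of the 2 ages did not overlap; the 10 genes from HSP17.6A to LHY were lower and the 6 from RAB18 to GRF5 higher at day 7.

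Root hair genes formed the list with the lowest median. Of 25 members, 23 fell and 0 rose, where 11.4% of all loci fell, with a median of -2.15. Root hairs are tip-growing outgrowths of root epidermal cells, and the list runs from the factors that start them to the proteins that build their walls. At the top of this hierarchy RHD6, the bHLH factor that starts hair growth (AT1G66470), read 6.21, 6.58, 6.82 and 6.83 on the day 7 arrays, against 7.59, 7.22, 8.16 and 8.69 on the day 4 arrays, a difference of -1.30 ± 0.33 (adjusted p = 0.0184). RSL4, the bHLH factor that sets hair length (AT1G27740), read 7.25, 7.32, 6.97 and 6.90 at day 7 and 9.40, 9.85, 10.02 and 10.04 at day 4, a difference of -2.72 ± 0.57 (adjusted p = 0.00872). Every day 7 array lay below every day 4 array in both. RSL2 fell with -2.37, while RSL1 was not called (-0.25).

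Effectors of hair growth fell as well. RHS19, a peroxidase found with other root hair specific genes (AT5G67400), read 8.13, 8.05, 6.99 and 6.98 on the day 7 arrays, against 10.89, 11.00, 11.65 and 11.82 on the day 4 arrays, a difference of -3.81 ± 0.54 (adjusted p = 0.00143). RHS14, RHS18 and G3Pp2 differed by -3.09, -2.99 and -2.80. Among wall proteins, EXPA7, an expansin of hair cells (AT1G12560), read 9.59, 9.49, 9.17 and 9.11 at day 7 and 11.31, 11.10, 11.57 and 11.66 at day 4, a difference of -2.07 ± 0.28 (adjusted p = 0.00123), and its partner EXPA18 differed by -2.22. The extensin-like LRX1 and the proline-rich PRP3 differed by -2.33 and -2.33. RHD2, the NADPH oxidase of the growing tip, differed by -1.74, and COW1, a phosphatidylinositol transfer protein needed for tip growth, by -0.95. The other member that did not pass was LRX2 (-0.42). Across ages the wild-type mean of EXPA7 was 12.75 at day 1, 11.41 at day 4, 9.34 at day 7 and 9.17 at day 10, and that of RSL4 was 10.32, 9.83, 7.11 and 6.65. The count of members that fell was 14 to 23 with any sample left out, the fewest without day 7 sample 2. RSL4, RSL2, LRX1, PRP3, RHD2, COW1, LRX2 and RSL1 lie outside the rule for named genes and were chosen after their values were seen.

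Genes of the endodermis fell as well. Casparian strip membrane proteins, scaffolds that place the strip, fell: CASP5 (AT5G15290) read 9.96, 10.04, 10.02 and 9.96 on the day 7 arrays, against 12.09, 11.85, 12.36 and 12.37 on the day 4 arrays, a difference of -2.17 ± 0.40 (adjusted p = 0.00477). CASP1 (AT2G36100) read 12.97, 12.89, 13.16 and 13.14 at day 7 and 14.17, 14.10, 14.28 and 14.21 at day 4, a smaller difference of -1.15 ± 0.29 (adjusted p = 0.0174). CASP2 and CASP4 lay between them with -1.19 and -1.45. MYB36, the factor that switches on the strip genes (AT5G57620), read 8.78, 9.13, 8.92 and 8.99 at day 7 and 10.60, 10.59, 10.53 and 10.55 at day 4, a difference of -1.62 ± 0.22 (adjusted p = 0.00122). Every day 7 array lay below every day 4 array for CASP1, CASP5 and MYB36. Unlike the hair genes, CASP1 was lowest at day 1: its means were 10.89 at day 1, 14.19 at day 4, 13.04 at day 7 and 12.17 at day 10.

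Over the 23 root cell type genes 12 fell and 1 rose, where 11.4% of all loci fell and 10.9% rose, median -0.80. The root cap factor listed as NAC070 fell with -1.72. WOX5, which marks the quiescent centre that holds root stem cells (AT3G11260), was the member that rose. It read 8.46, 8.63, 8.05 and 8.09 on the day 7 arrays, against 6.59, 6.17, 4.84 and 5.25 on the day 4 arrays. The difference was 2.60 ± 0.69 (adjusted p = 0.0232), with the arrays of day 4 sample 2 under 5.56, the lower quartile of all loci. The stem cell factor PLT1 stood at -0.18 and was not called. In the suberin list, whose enzymes make the waxy second barrier of the endodermis, 4 of 8 fell and none rose, median -0.81. They were FAR5 (-1.53), RWP1 (-1.41), KCS2 (-0.87) and FAR1 (-0.71), while GPAT5 (-1.09) and CYP86A1 (-0.63) did not pass. The number that fell was 5 to 13 of the root cell type list with any sample left out, the fewest without day 7 sample 1, and 2 to 6 of the suberin list, the fewest without day 4 sample 1.

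Vascular genes fell more often than they rose. Of 20 genes of xylem, phloem and secondary wall 12 fell and 1 rose, median -0.61, where 11.4% of all loci fell and 10.9% rose. IRX9, a xylan-building enzyme, differed by -1.51 ± 0.20 (adjusted p = 0.00108), and the cellulose synthase IRX1 by -1.01. Relative to all loci IRX9 was -1.49 after quantile normalization, -1.30 as deposited and -0.66 with cyclic loess. The fibre factor listed as NAC012 (-0.94) and the vessel factor VND7 (-0.83) also fell. The phloem lectin PP2-A1 rose with 0.74, and SUC2, the sucrose loader of the phloem, was not called (0.19). The count of falls was 3 to 14 with any sample left out, the fewest without day 7 sample 2. In the phenylpropanoid and lignin list 3 of 15 fell and none rose: FAH1 (-0.98), PAL4 (-0.91) and 4CL2 (-0.83). The entry enzymes PAL1 (-0.28) and C4H (-0.22) did not pass.

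**Figure D3:**
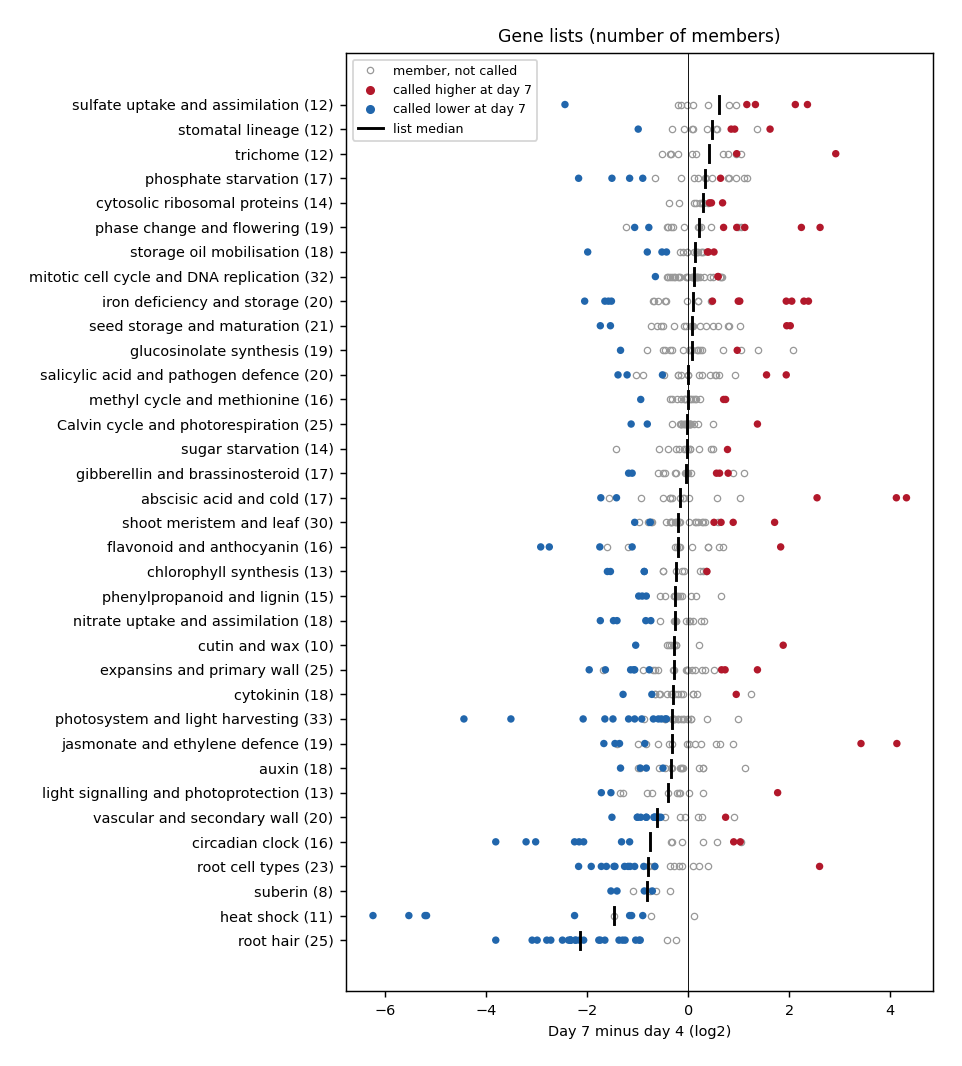
Difference between day 7 and day 4 (log2, horizontal axis) of each member of the gene lists other than the reference genes, ordered by median. Filled points were called higher (red) or lower (blue) at day 7 by limma, open points were not called, and the black bar is the list's median; the root hair list (-2.15) and the heat shock list (-1.46) lie lowest and the sulfate list (0.60) highest.

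The photosystem and light-harvesting list leaned downward, and its largest changes were in antenna proteins, the chlorophyll-binding proteins that pass light energy to the reaction centres. Of 33 members 13 fell and 0 rose, where 11.4% of all loci fell, median -0.32. LHCB2.3 (AT3G27690) read 10.55, 10.42, 9.51 and 9.59 on the day 7 arrays, against 14.74, 14.83, 14.08 and 14.16 on the day 4 arrays, a difference of -4.44 ± 0.48 (adjusted p = 4.73e-04). LHCB2.2 and LHCB2.1 differed by -3.51 and -2.08, though probes of these copies may share their RNA. LHCB3 (AT5G54270) read 14.15, 14.27, 13.52 and 13.58 at day 7 and 15.53, 15.56, 15.56 and 15.50 at day 4, a difference of -1.65 ± 0.23 (adjusted p = 0.00127), and the minor antenna genes LHCB6 and LHCB4.2 fell with -1.49 and -1.18. Every day 7 array of LHCB2.3 and LHCB3 lay below every day 4 array. LHCB4.1 (-0.10) and LHCB5 (-0.45) did not pass, and the probe of CAB2 read near background at both ages. The list's median level was 15.10 to 15.20 on the day 7 arrays and 15.34 to 15.45 on the day 4 arrays. Relative to all loci the median difference was -1.42 to -1.10 under the other scalings. The count of falls was 6 to 16 with any sample left out, the fewest without day 7 sample 2.

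The Calvin cycle and photorespiration list held few calls: 1 of 25 rose and 2 fell, where 22.3% of all loci were called. The median was -0.03, or -1.16 to -0.72 relative to all loci under the other scalings. SBPASE, which helps regenerate the CO2 acceptor (AT3G55800), read 13.86, 13.67, 13.95 and 14.00 on the day 7 arrays, against 15.08, 15.07, 15.00 and 14.87 on the day 4 arrays, a difference of -1.13 ± 0.14 (adjusted p = 7.73e-04). FBA1, a plastid aldolase, fell with -0.81. CP12-2, the small protein that holds 2 Calvin cycle enzymes inactive in the dark (AT3G62410), read 15.40, 15.26, 15.19 and 15.09 at day 7 and 13.90, 13.83, 13.93 and 13.81 at day 4, a difference of 1.37 ± 0.18 (adjusted p = 0.00122). The Rubisco small subunit gene RBCS1A stood at 0.03, with levels of 15.94, 15.82, 15.97 and 15.94 at day 7 and 15.83, 15.86, 15.90 and 15.97 at day 4, close to the top of the scale. Its difference, and that of the close copies RBCS1B (0.03) and RBCS3B (0.01), turned below that of all loci under every other scaling.

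Chlorophyll synthesis showed 4 falls and 1 rise among 13 genes, where 11.4% of all loci fell and 10.9% rose. The median was -0.24, or -0.76 to -0.47 relative to all loci under the other scalings. CH1, the oxygenase that makes chlorophyll b (AT1G44446), read 12.68, 12.70, 12.55 and 12.24 on the day 7 arrays, against 14.35, 14.44, 13.95 and 13.81 on the day 4 arrays, a difference of -1.60 ± 0.30 (adjusted p = 0.00523). HEMA1, the first committed step of tetrapyrrole synthesis, differed by -0.87 ± 0.23 (adjusted p = 0.0234), and CRD1, a cyclase subunit, by -0.87. PORA, the protochlorophyllide reductase of dark-grown seedlings, fell with -1.54, while PORB and the gene listed as POR C were at -0.09 and 0.29 and did not pass. G4, the last enzyme of the pathway, rose with 0.37, but relative to all loci it was 0.07 as deposited. The falls numbered 2 to 5 with any sample left out, the fewest without day 4 sample 1.

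Clock genes of the morning and the day fell. The plant clock is a loop of repressors expressed in turn through the day, with CCA1 and LHY at dawn, PRR9, PRR7 and PRR5 through the day and TOC1 and ELF4 near dusk. CCA1 (AT2G46830) read 9.12, 9.16, 8.24 and 8.22 on the day 7 arrays, against 12.39, 12.37, 11.59 and 11.23 on the day 4 arrays, a difference of -3.21 ± 0.54 (adjusted p = 0.00318). LHY (AT1G01060) read 8.47, 8.27, 8.28 and 8.38 at day 7 and 11.45, 11.67, 11.13 and 11.23 at day 4, a difference of -3.02 ± 0.27 (adjusted p = 1.67e-04). PRR9 (AT2G46790) read 6.34, 6.64, 5.50 and 5.98 at day 7 and 10.80, 10.69, 8.85 and 9.35 at day 4, a difference of -3.81 ± 0.88 (adjusted p = 0.0126). All day 7 arrays lay below all day 4 arrays in these genes. PRR7 and PRR5 fell by less (-1.32 and -1.16), as did RVE8 (-2.07), the activator of the afternoon loop. GI, a clock and flowering protein (AT1G22770), read 11.74, 11.69, 10.70 and 10.65 at day 7 and 13.35, 13.38, 13.42 and 13.26 at day 4, a difference of -2.16 ± 0.41 (adjusted p = 0.00555), and CDF1, the flowering repressor it helps degrade, fell with -2.25. ELF4 rose with 1.03 and the RNA-binding GRP7 with 0.90, and TOC1 was not called (0.30). Relative to all loci GRP7 was 0.92 after quantile normalization, 0.51 with cyclic loess and 0.01 as deposited and with both scalings by a constant. Over the list 8 of 16 fell and 2 rose, where 11.4% of all loci fell and 10.9% rose. The list median was -0.75, with 5 to 8 falls when any sample was left out, the fewest without day 7 sample 2. PRR7, PRR5, RVE8 and GI were chosen after their values were seen. With the hour of harvest not in the labels, age and hour of day cannot be told apart for these genes.

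Light signalling genes were called in both directions. HY5, the bZIP factor that promotes greening (AT5G11260), read 12.14, 12.18, 11.50 and 11.56 on the day 7 arrays, against 10.14, 10.36, 10.05 and 9.78 on the day 4 arrays, a difference of 1.77 ± 0.23 (adjusted p = 0.00103). PIF4 (AT2G43010) and the gene listed as PIL6, also called PIF5, promote growth in shade and heat, and differed by -1.53 ± 0.30 (adjusted p = 0.00686) and -1.72 ± 0.26 (adjusted p = 0.00207). PIF4 read 12.74, 12.68, 11.80 and 12.15 at day 7 and 14.01, 14.10, 13.51 and 13.85 at day 4, with no overlap. In the list of 13, these were the 1 rise and the 2 falls, where 10.9% of all loci rose and 11.4% fell; the early light-induced ELIP1 stood at -1.29 and was not called. The falls numbered 1 to 4 with any sample left out, the fewest without day 7 sample 2.

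**Figure D4:**
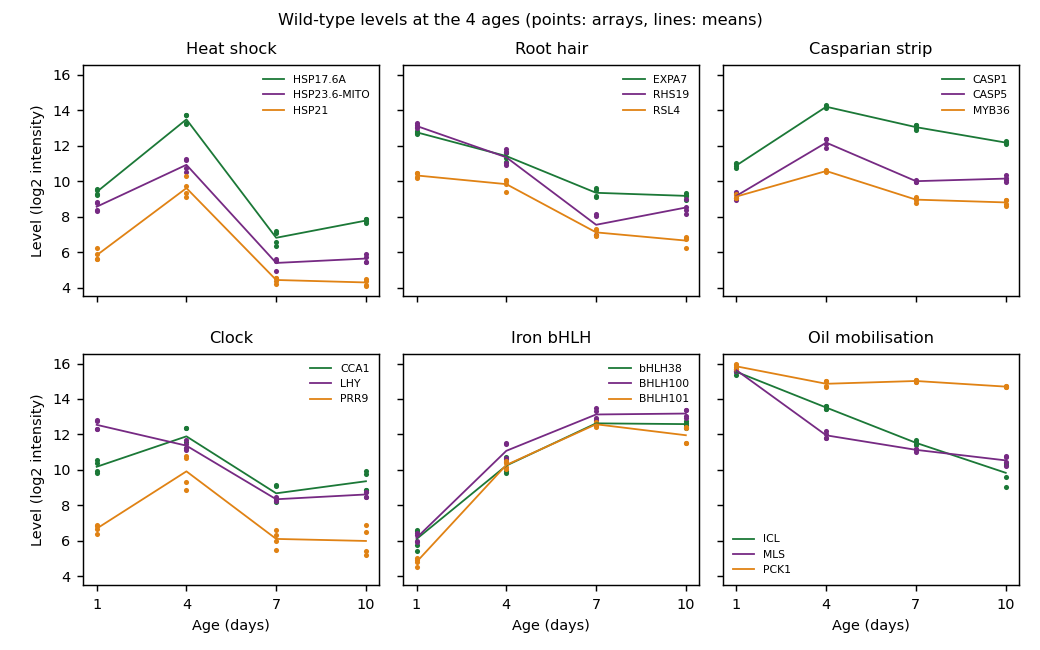
Wild-type levels (log2 intensity after quantile normalization, vertical axis) of 18 genes at days 1, 4, 7 and 10 (horizontal axis, not to scale), with points for arrays and lines through the means of 4. The 3 heat shock genes were highest at day 4, EXPA7 and RHS19 were lower at each age up to day 7, the Casparian strip genes were highest at day 4, and the iron bHLH genes were low at day 1 and high at days 7 and 10.

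Iron genes moved in both directions. Roots acquire iron by reduction at the surface and uptake through IRT1, under the factor FIT (listed as FRU) and the bHLH factors of subgroup Ib, while ferritins store iron in plastids. Factors of subgroup Ib rose: bHLH38 (AT3G56970) read 12.61, 12.78, 12.49 and 12.63 on the day 7 arrays, against 9.97, 9.85, 10.44 and 10.73 on the day 4 arrays, a difference of 2.38 ± 0.31 (adjusted p = 0.00108). BHLH101 (AT5G04150) read 12.68, 12.67, 12.41 and 12.54 at day 7 and 10.04, 10.14, 10.42 and 10.53 at day 4, a difference of 2.29 ± 0.38 (adjusted p = 0.00289), and BHLH100 rose with 2.05. MYB72, a root factor active under low iron, rose with 1.94, although day 4 array 1 read 7.12 against 4.50 to 4.93 on the other day 4 arrays. Every day 7 array of bHLH38 and BHLH101 lay above every day 4 array. The ferritins FER1 and FER4 fell, with -1.58 ± 0.15 (adjusted p = 2.83e-04) and -1.65; FER1 (AT5G01600) read 10.86, 10.80, 10.67 and 10.82 at day 7 and 12.28, 12.48, 12.37 and 12.35 at day 4. The ferritin FER3, chosen after its value was seen, did not pass (-0.44).

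The importers IRT1 and IRT2 did not rise. IRT1 (AT4G19690), the main iron importer, read 13.12, 13.01, 13.91 and 13.93 on the day 7 arrays, against 14.22, 14.13, 14.27 and 14.12 on the day 4 arrays, a difference of -0.69 ± 0.39 (adjusted p = 0.227) that did not pass although the arrays did not overlap. Its close neighbour IRT2 fell with -1.52, and so did NAS2, which makes the metal chelator nicotianamine (-2.05). Over the list 7 of the 20 rose and 4 fell, where 10.9% of all loci rose, and the median of 0.08 turned below that of all loci under each of the 4 other scalings. The rises numbered 3 to 8 with any sample left out, the fewest without day 7 sample 1.

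Sulfate genes gave the highest median of the 36 gene lists, 0.60. Of 12 members 4 rose and 1 fell, where 10.9% of all loci rose and 11.4% fell. LSU2 and LSU1, small proteins that respond to low sulfur, rose with 2.36 ± 0.61 (adjusted p = 0.0211) and 2.12 ± 0.59 (adjusted p = 0.0276). LSU2 (AT5G24660) read 10.15, 10.00, 8.68 and 8.66 on the day 7 arrays, against 6.95, 8.29, 5.26 and 7.54 on the day 4 arrays, with day 4 arrays spread widely within both samples. The vacuolar exporter SULTR4;2 (1.33) and the vascular transporter SULTR2;1 (1.16) also rose. The root high-affinity importer SULTR1;1 (AT4G08620) went the other way and read 7.39, 7.29, 6.28 and 6.50 at day 7 and 8.97, 8.76, 9.92 and 9.58 at day 4, a difference of -2.44 ± 0.37 (adjusted p = 0.00203). The rises numbered 2 to 4 with any sample left out, the fewest without day 4 sample 2.

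Nitrate genes leaned down, with 5 falls and no rise among 18, where 11.4% of all loci fell and 10.9% rose. The median was -0.27, or -0.93 to -0.64 relative to all loci under the other scalings. NRT1.1, the dual-affinity nitrate transporter and sensor (AT1G12110), read 12.59, 12.74, 12.93 and 12.89 on the day 7 arrays, against 14.36, 14.30, 14.18 and 14.22 on the day 4 arrays, a difference of -1.48 ± 0.21 (adjusted p = 0.00157). The high-affinity transporter listed as NRT2:1 differed by -1.74 ± 0.21 (adjusted p = 8.10e-04), and the ammonium transporter AMT1;2 by -1.41. The nitrate reductase NIA1 was not called (-0.26). Of 17 phosphate starvation genes 4 fell and 1 rose, although the median was 0.33. The fallers were RNS1 (-2.17), a secreted ribonuclease, PPCK1 (-1.51), a kinase of PEP carboxylase, the phospholipase NPC4 (-1.16) and the phosphate sensor SPX2 (-0.90), and the riser was SQD2 (0.64), which makes sulfolipid. The falls of the phosphate list numbered 2 to 5 with any sample left out, the fewest without day 7 sample 2.

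In the abscisic acid and cold list 3 of 17 genes rose and 2 fell, where 10.9% and 11.4% of all loci did. The median of -0.17 turned above that of all loci as deposited and under scaling to the reference genes or the array median. The risers were RAB18, COR15B and COR15A (2.55 ± 0.48, adjusted p = 0.00533). The fallers were NCED3, a rate-limiting step of abscisic acid synthesis (-1.73), and ABI1, a phosphatase that blocks its signal (-1.42). Another widely used cold and drought marker, LTI78, also called RD29A, did not pass (-0.36). The falls numbered 1 to 4 with any sample left out, the fewest without day 4 sample 1.

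Defence genes were mixed. In the jasmonate and ethylene list 2 of 19 rose and 4 fell, where 10.9% of all loci rose and 11.4% fell. The risers were the defensins PDF1.2b (4.13) and PDF1.2, close copies whose probes may share RNA. PDF1.2b (AT2G26020) read 8.77, 8.89, 8.40 and 8.49 on the day 7 arrays, against 4.65, 4.54, 4.25 and 4.58 on the day 4 arrays, so it was near background on every day 4 array. The fallers were the repressor JAZ10 (-1.67), the chitinase HCHIB (-1.45), and the jasmonate synthesis enzymes AOS (-1.36) and AOC1 (-0.86); VSP2 (-0.38) and LOX2 (0.02) did not pass. None of these 4 falls was called without day 7 sample 2. In the salicylic acid list 2 of 20 rose, PR5 (1.94 ± 0.25, adjusted p = 9.42e-04) and the wall kinase WAK1 (1.55), and 3 fell, among them the synthesis enzyme listed as EDS16, also called ICS1 (-1.39 ± 0.18, adjusted p = 9.97e-04), and PAD3, the last step of camalexin synthesis (-1.21).

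Some genes of anthocyanin synthesis fell. DFR (AT5G42800), the first enzyme committed to anthocyanins, read 6.37, 6.37, 6.36 and 6.28 on the day 7 arrays, against 9.08, 9.91, 9.12 and 8.96 on the day 4 arrays, a difference of -2.92 ± 0.38 (adjusted p = 0.00106). LDOX (AT4G22880), the next step, read 5.11, 4.73, 4.22 and 3.97 at day 7 and 7.59, 7.36, 7.93 and 6.12 at day 4, a difference of -2.75 ± 0.44 (adjusted p = 0.00246). The ages did not overlap in either gene. The glucosyltransferase UGT78D2 (-1.75) and the hydroxylase TT7 (-1.11) fell too, while chalcone synthase, TT4, at the start of the pathway did not pass (-0.18). The late genes UF3GT (-1.19) and GSTF12 (0.08), chosen after their values were seen, did not pass either. MYB111, which turns on the flavonol branch, was the member that rose (1.83). The list counted 4 falls and 1 rise among 16 genes, where 11.4% of all loci fell and 10.9% rose, median -0.21. In the glucosinolate list CYP79F2 rose (0.97) and CYP81F2 fell (-1.34) among 19 genes.

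Wall genes split between members of the same families. Of 25 expansins and primary wall genes 3 rose and 6 fell, where 10.9% of all loci rose and 11.4% fell, median -0.29. Expansins loosen walls and XTH enzymes cut and rejoin xyloglucan. EXPA16 (-1.96), XTH17 (-1.64), EXPA1 (-1.14) and XTH20 (-1.08) fell, and TCH4 (1.37), EXPA4 (0.73) and EXPA15 (0.66) rose. EXPA8 had a large difference that did not pass (-1.69 ± 0.57). The falls numbered 3 to 11 with any sample left out, the fewest without day 7 sample 2. Among 10 cutin and wax genes CER1, which makes the alkanes of cuticular wax (AT1G02205), read 13.80, 13.95, 13.61 and 13.72 on the day 7 arrays, against 12.06, 12.13, 11.62 and 11.73 on the day 4 arrays, a difference of 1.88 ± 0.22 (adjusted p = 6.71e-04). The lipid transfer protein LTP2 fell (-1.04), and the other 8 were not called.

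Leaf genes showed no common direction. Of 30 shoot meristem and leaf genes 4 rose and 3 fell, where 10.9% of all loci rose and 11.4% fell. The list median of -0.21 turned above that of all loci as deposited and under scaling to the reference genes or the array median. GRF5, a growth-regulating factor that prolongs leaf cell division (AT3G13960), read 9.80, 9.95, 10.10 and 10.20 on the day 7 arrays, against 8.36, 8.12, 8.23 and 8.50 on the day 4 arrays, a difference of 1.71 ± 0.17 (adjusted p = 3.74e-04). GRF4 (0.89), ANT (0.65), which sustains organ growth, and REV (0.51), a factor of the upper leaf side, also rose. JAG, which drives growth of the blade (-1.06), the boundary gene CUC3 (-0.76) and the meristem receptor CLV1 (-0.75) fell, and the meristem gene STM did not pass (0.30).

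Some genes of epidermal cell fate rose. GIS, a zinc finger factor of trichome initiation (AT3G58070), read 7.74, 7.91, 7.62 and 7.35 on the day 7 arrays, against 4.39, 4.57, 4.56 and 5.43 on the day 4 arrays, a difference of 2.92 ± 0.20 (adjusted p = 4.07e-05). Relative to all loci GIS was 2.94 after quantile normalization, 1.96 as deposited and 1.37 with cyclic loess. The inhibitor TCL1 also rose (0.96), and the core trichome factors GL3 (-0.52) and GL1, listed as MYB0 (0.79), did not pass. Trichome genes thus gave 2 rises and 0 falls of 12, where 10.9% of all loci rose and 11.4% fell, median 0.42. Of 12 stomatal genes 3 rose and 1 fell, median 0.46. STOMAGEN, a mesophyll peptide that promotes stomata (AT4G12970), read 11.17, 10.85, 10.81 and 10.65 at day 7 and 9.34, 9.67, 8.94 and 9.05 at day 4, a difference of 1.62 ± 0.23 (adjusted p = 0.00163). The inhibitory peptide EPF1 (0.92) and the receptor ERL1 (0.85) rose, the protease SDD1 fell (-0.99), and SPCH, which starts the lineage, did not pass (0.10). The stomatal rises numbered 1 to 6 with any sample left out, the fewest without day 7 sample 1, and those of trichome genes 1 to 4.

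Genes of phase change, by which a plant leaves the juvenile state, gave 5 rises and 2 falls of 19, median 0.22. Of all loci 10.9% rose and 11.4% fell. AGL24, a MADS factor that promotes flowering (AT4G24540), read 8.29, 8.29, 7.91 and 7.66 on the day 7 arrays, against 5.69, 4.55, 5.15 and 6.30 on the day 4 arrays, a difference of 2.61 ± 0.45 (adjusted p = 0.00373). SPL4 (AT1G53160), a target of the juvenile microRNA miR156, read 8.89, 8.83, 9.10 and 9.10 at day 7 and 7.12, 6.08, 6.14 and 7.61 at day 4, a difference of 2.24 ± 0.53 (adjusted p = 0.0143), and SPL3 rose with 0.96. The day 4 arrays of SPL4 and AGL24 varied by more than 1, and no day 4 array reached any day 7 array. FT, the mobile flowering signal, rose with 1.12 ± 0.35 (adjusted p = 0.0448), at low levels and with overlapping arrays. FLC, the floral repressor, fell with -0.78 ± 0.21 (adjusted p = 0.0264), also with overlap, and AGL8, also called FRUITFULL, fell with -1.06. AGL20, also called SOC1, did not pass (-0.09). The rises numbered 1 to 6 with any sample left out, the fewest without day 4 sample 1.

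In the storage oil list 4 of 18 genes fell and 3 rose, where 11.4% and 10.9% of all loci did. ICL, isocitrate lyase of the glyoxylate cycle (AT3G21720), read 11.45, 11.43, 11.68 and 11.56 on the day 7 arrays, against 13.44, 13.41, 13.60 and 13.62 on the day 4 arrays, a difference of -1.99 ± 0.27 (adjusted p = 0.00116). MLS, malate synthase of the same cycle (AT5G03860), read 11.15, 11.02, 11.18 and 11.19 at day 7 and 11.82, 11.78, 12.19 and 12.02 at day 4, a difference of -0.81 ± 0.24 (adjusted p = 0.0336). Day 7 lay below day 4 on every array in both genes. The means of ICL were 15.53 at day 1, 13.51 at day 4, 11.53 at day 7 and 9.84 at day 10, and those of MLS were 15.62, 11.95, 11.13 and 10.54. The acyl-CoA oxidases ACX1 (-0.52) and ACX3 (-0.43) fell, LACS7 (0.40) and CSY3 (0.38) rose, with LACS7 at 0.07 relative to all loci as deposited, and the list median of 0.14 turned below that of all loci under each other scaling. The seed storage and maturation list had 2 rises and 2 falls of 21. The albumin SESA3 fell (-1.74), and the oil body proteins OLEO1 (2.02 ± 0.37, adjusted p = 0.00448) and OLEO4 (1.95) rose. Relative to all loci OLEO4 was 1.97 after quantile normalization, 0.96 as deposited and 0.52 with cyclic loess.

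Genes of cell division, ribosomes and the methyl cycle gave scattered calls, where 22.3% of all loci were called. In the mitotic cell cycle list 2 of 32 rose, CDC20.1 (0.59) and the ribonucleotide reductase subunit TSO2 (0.59), and 1 fell, CYCB1;4 (-0.65). The cyclin CYCB1;1 did not pass (0.12). Of 14 cytosolic ribosomal protein genes 3 rose, RPS6 (0.68), RPL23AB (0.46) and RPL23AA (0.42), and none fell, but the list median of 0.29 turned below that of all loci as deposited and under scaling to the reference genes or the array median. In the methyl cycle, which recycles the methyl donor, the adenosine kinases ADK1 (0.74) and ADK2 (0.70) rose and the methionine synthase MS2 fell (-0.94). In each of these lists every rise lost its call when a certain sample was left out. RPS6, RPL23AB, RPL23AA and ADK2 lost the call in most of the fits that left out a sample. The gene mutated in sahh1, listed as HOG1 (AT4G13940), read 15.55, 15.40, 15.55 and 15.17 on the day 7 arrays, against 15.20, 15.27, 15.27 and 15.31 on the day 4 arrays in wild type, a difference of 0.15 ± 0.21 (adjusted p = 0.623).

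The hormone lists held calls in both directions, where 22.3% of all loci were called. In the auxin list 4 of 18 fell and none rose, among them the root efflux carrier PIN2, listed as EIR1 (-1.34), the influx carrier AUX1 (-0.50) and the early response gene IAA1 (-0.95). The cytokinin list had 1 rise, the response regulator RR16 (0.95), and 2 falls, ARR3 (-1.29) and the degrading enzyme CKX3 (-0.72), of 18. In the gibberellin and brassinosteroid list the synthesis gene GA3OX1 (-1.18) and the brassinosteroid-inactivating BAS1 (-1.11) fell, while GASA1 (0.79), GASA6 (0.62) and the receptor GID1A (0.56) rose, of 17. Sugar starvation genes had 1 rise of 14, IVD, which degrades leucine (0.77). The medians of the cytokinin and the gibberellin lists, -0.30 and -0.05, turned above that of all loci as deposited and under scaling to the reference genes or the array median.

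Transcripts of the organelle genomes differed between the samples of day 7. The median level of 97 mitochondrial loci was 9.20, 9.21, 10.18 and 10.24 on the day 7 arrays, against 8.63, 8.59, 8.24 and 8.16 on the day 4 arrays, with a median difference of 1.31 and 14 loci called higher. That of 67 plastid loci was 14.63, 14.64, 15.21 and 15.12 on the day 7 arrays and 14.51, 14.70, 14.30 and 14.27 on the day 4 arrays, with a median difference of 0.45 and 0 loci called. Day 7 sample 2, the second pair of values, was thus higher than sample 1 in both. Over all loci 10.9% were called higher. In sahh1 the median difference between day 7 and day 4 was 0.00 for the mitochondrial loci and -0.07 for the plastid loci. These 2 organelle lists were added after the table was seen. With organelle loci left out before normalization the comparison called 6823 loci, against 6769 with them.

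Some calls given above with a standard error rested on single samples. RSL4 and PIF4 were not called without day 7 sample 2, at adjusted p = 0.0578 and 0.0584 in limma. PRR9 was not called without day 7 sample 2 or day 4 sample 1, and RHD6 and LSU2 not without day 7 sample 1 or day 4 sample 2, with highest adjusted p values of 0.0810, 0.116 and 0.151. SPL4 and HEMA1 lost the call without either sample of day 7 or day 4 sample 1, WOX5 without either sample of day 7 or day 4 sample 2, and FLC without either sample of day 4 or day 7 sample 2, up to 0.0793, 0.120, 0.135 and 0.190. CASP1, LSU1, MLS and FT lost it without any 1 sample of day 7 or day 4, up to 0.0986, 0.134, 0.156 and 0.250, and MLS and FT also without some samples of other ages. All 13 kept their direction, and the other genes given with a standard error and called stayed called. Genes given without a standard error that lost the call in most fits with a sample left out include CLV1, G4, NAC012, HSP101, AUX1, TCH4, CSY3, EIR1 and FAR1.

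In sahh1 the same step from day 4 to day 7 served as a comparison for the wild-type change. The median of root hair genes was -2.15 in wild type and -1.21 in sahh1. That of heat shock genes was -1.46 in wild type and -0.32 in sahh1, that of clock genes -0.75 in wild type and -0.72 in sahh1, and that of photosystem genes -0.32 in wild type and -0.38 in sahh1. RAB18 differed by 4.32 in wild type and 3.90 in sahh1, and GIS by 2.92 in wild type and 1.19 in sahh1. A test of the difference itself, the wild-type change minus the sahh1 change, called 9 loci, 0.0296% of those tested, with 2837 at an unadjusted p under 0.05. The SD between samples was 0.299 for the wild-type samples of day 4 and 0.747 for the sahh1 samples of day 4.

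The 9 loci were 7 in which the wild-type difference was the lower and 2 in which it was the higher. FLOT1, a membrane microdomain protein (AT5G25250), differed by -2.28 in wild type and 1.46 in sahh1, a difference between genotypes of -3.74 ± 0.44 (adjusted p = 0.0242). SUC7, listed as a sucrose transporter (AT1G66570), differed by -2.88 in wild type and 1.04 in sahh1, a difference between genotypes of -3.92 ± 0.52 (adjusted p = 0.0473), and FUT5, a fucosyltransferase (AT2G15370), of -2.04 ± 0.27 (adjusted p = 0.0473). None of the 9 was a member of a gene list, but the lists use only 649 entries beside 30385 loci tested. With the replicate block 0 loci were called, and the deviations of same-numbered samples had a correlation of 0.74 between wild type and sahh1 at day 7 and 0.15 at day 4. The count of 9 was 0 to 2071 with any sample left out, 2071 and 1962 without the first and the second sahh1 sample of day 4.

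**Figure D5:**
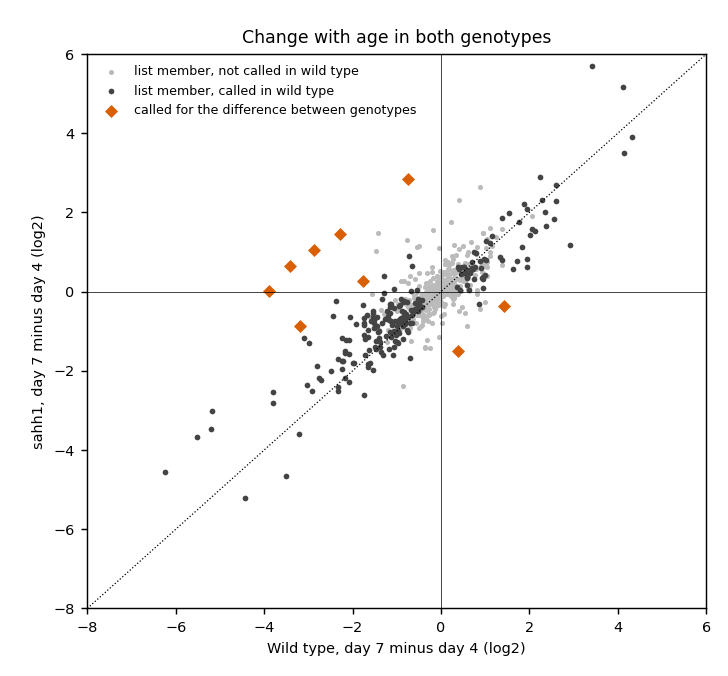
Difference between day 7 and day 4 (log2) in wild type (horizontal axis) and in sahh1 (vertical axis). Grey and black points are members of the 36 gene lists not called and called in wild type, orange diamonds are the 9 loci called for the difference between genotypes, and the dotted line marks equal change; the orange loci lie far from that line, and the heat shock genes at the far left had smaller differences in sahh1, which was not called.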

How the data were processed

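Total RNA, extracted with an RNeasy Plant Mini Kit according to the labels' protocols, was hybridised to 32 single-colour (Cy3) NimbleGen arrays. Each value in the deposited table is a linear, normalized intensity of 1 locus on 1 array, which the authors made with RMA, per the submitters' processing notes, with no version given. Probe-level data were not used here, the genome build is not given in the sources used here, and no coordinates are printed. No scanner file was used, so signal over background is not known.

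Intensities were set to log2 and quantile normalized over all 32 arrays. Arrays 1 and 2, and arrays 3 and 4, of a group were averaged into 1 sample, giving 16 samples. Limma 3.58.1 in R 4.3.3 fitted 1 mean per group (8 groups, 8 residual degrees of freedom, prior 2.54) and took day 7 minus day 4 in wild type and the same change in wild type minus sahh1. The Benjamini-Hochberg adjustment ran over all 30385 loci, and loci were called under 0.05, with no filter on level. With 2 samples against 2 an exact permutation test cannot go below p = 0.333, so none was run.

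Of 30385 loci 29996 matched the RefSeq TAIR10.1 gene table, used for names and biotypes, 10357 have a symbol and 3827 are pseudogenes. The 36 gene lists came from general knowledge, and 649 of their 654 entries were used. The members, lists and tests were chosen with earlier results of these data known. Named genes were the 12 largest changes in each direction among symbols with non-overlapping arrays and a level above the median in the higher group, up to 4 called members per list and direction, the first 2 of each list, members of small families (light-harvesting, expansin and similar), and interaction genes; exceptions are stated. The lists were described by counts and medians. The search of promoters for motifs could not be run without promoter sequences and is not analysed here.

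On simulated data of 30385 loci for day 7 against day 4, the fit recovered 1 of 50 loci at a log2 change of 0.5, 16 at a change of 1, 42 at 2 and 48 at 4, with 4 false calls beside 107 true ones. Only 50 loci were changed at each size, against 6769 called in the data, so a call was harder to reach in the simulation. The recovered shares therefore do not carry over to the real comparison. The alternatives were the values as deposited, cyclic loess, scaling to reference genes or the array median, no dim loci, arrays as replicates with and without a random block, fewer groups, array weights, a trended robust prior, a replicate block, leaving out each sample and, added after the data were seen, no organelle loci.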

Additional observations from a re-analysis of the deposited data

Results flagged for a closer look

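In 438 groups of 4 arrays, the wild-type arrays of day 7 and of day 4 for each of 219 genes named here, 9 groups held an array farther from the others than Dixon's test allows. Chance flags about 1 in 20 groups when the 4 values are independent. The arrays here come in pairs, so that rate does not apply and cannot be set against the count. On the day 7 arrays, ABCG40 read 7.18 on array 3 against 7.50 to 7.53 on the others, FUT5 6.37 on array 3 against 6.78 to 6.86, and RPS6 13.89 on array 3 against 14.10 to 14.14. FBA1 read 13.37 on day 7 array 1 against 13.40 to 13.41, and DFR 6.28 on day 7 array 4 against 6.36 to 6.37, both small gaps in tight groups. On day 4 array 1, PDF1.3 read 7.75 against 4.44 to 4.64 on the other arrays of day 4, MYB72 7.12 against 4.50 to 4.93, TT4 14.62 against 14.51, and MYB0 4.89 against 7.04 to 7.29.

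For 9 loci the change between day 7 and day 4 differed between wild type and sahh1 by the interaction of the limma fit, and for 0 with the replicate block. The wild-type difference minus the sahh1 difference was -3.89 for AT1G56060, -4.06 for AT1G57630, -3.92 for SUC7, -2.04 for FUT5, -3.59 for AT2G21460, 1.89 for AT3G27835, -2.32 for AT3G63380, 1.79 for AT5G18710 and -3.74 for FLOT1. The wild-type differences were -3.88 for AT1G56060, -3.41 for AT1G57630 and -3.19 for AT3G63380, beside 0.01, 0.64 and -0.87 in sahh1. AT2G21460 differed by -0.75 in wild type and 2.84 in sahh1. AT3G27835 differed by 0.39 in wild type and -1.50 in sahh1, and AT5G18710 by 1.42 in wild type and -0.37 in sahh1.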

How the results depend on the processing

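The count of 6769 calls (3312 higher, 3457 lower) was 25114 (21498 higher) as deposited, 16266 (13578 lower) with scaling to reference genes, 18063 (2169 higher, 15894 lower) with scaling to the array median, 13231 (6736 higher, 6495 lower) with 32 arrays as replicates and 2825 (1336 higher, 1489 lower) with the 2 groups alone. Those scalings moved the median of all loci. The interaction count of 9 was 23 with cyclic loess, 2 with scaling to reference genes, 1470 with 32 arrays, 192 with a random block, 0 with array weights, 5 with a trended robust prior and 0 with the replicate block, with 1142 and 2783 loci at an unadjusted p under 0.05 in the limma fits that gave 0. The cause of these moves was not tested.

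With any 1 of the 16 samples left out, calls numbered 2974 to 11175, calls higher 1462 to 5447, calls lower 1466 to 5728, and interaction calls 0 to 2071. Where the sample left out belongs to day 7 or day 4, the lone sample of that group is assumed to vary like the other groups. Of 183 called genes named here, 91 stayed called without each sample in turn, 92 lost the call without at least 1, and 0 turned. Without day 7 sample 1 or 2, or day 4 sample 1 or 2, the count of all calls was 3116, 2974, 4462 and 4475.

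Relative to the median of all loci, 0 of the 183 turned under another scaling, and 15 to 29 lost the call. Among genes not called, RBCS1A read -1.38 as deposited and under both scalings and -0.72 with cyclic loess, RBCS3B -1.40 and -0.75, RBCS1B -0.84 and -0.43, and HOG1 -0.76 as deposited and under both scalings. The replicate numbers pair no samples per the labels, and the deviations of same-numbered wild-type samples of days 7 and 4 had a correlation of 0.02, while those of wild type and sahh1 had 0.74 at day 7 and 0.15 at day 4. The fit with the replicate block called 6424 loci. Only 2 samples per group, dim probes near background and bright probes near the top of the scale limit what can be seen.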
